A study of Homo sapiens with 27 samples.

Results

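The 3 PIM kinase genes PIM1, PIM2 and PIM3 and the feedback inhibitor genes CISH, SOCS1, SOCS2 and SOCS3 are described here in U937 cells treated with matrine. These 7 genes, taken from the 57905 genes of the deposited table by symbol, were chosen as a family with their counts and FPKM values in these libraries already in view, so their values are given as a description and without p-values. U937 is a human myeloid leukaemia cell line of monocytic character, and matrine is a quinolizidine alkaloid from the roots of Sophora plants. mRNA levels were measured by RNA-seq in 3 groups of 3 libraries, namely control cells (Ctrl) and cells exposed to matrine, at 0.8 mg/ml in both cases, for either 30 min or 24 h. All libraries came from unmodified U937 cells, the methods name ddH2O as the vehicle, and the same control libraries served both times. How long the control cells were cultured is not given in the sources used here, so 24 h of matrine treatment and 24 h in culture cannot be told apart.

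PIM kinases are serine/threonine kinases that need no activating phosphorylation and are active once translated, so their activity largely follows the amount made. Cytokine receptors without kinase activity of their own signal through Janus kinases (JAKs) to STAT transcription factors, and STAT proteins in turn induce PIM1, CISH and the SOCS genes. CISH and the SOCS proteins bind receptors or JAKs through an SH2 domain and, through a SOCS box, recruit a ubiquitin ligase, which closes a negative feedback loop. In myeloid leukaemia PIM kinases are known for promoting survival and growth and for stabilising c-Myc.

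Regulatory sequences near the start sites and in the 3′ ends of these genes are shown first, because both kinds of element are known features of rapidly regulated cytokine-response genes. Promoter windows from RefSeq (GRCh38.p14), each running from 250 bases before to 50 bases after a start site, were found for 6 of the 7 genes, with SOCS2 unmatched. They were searched for TTCNNNGAA, the core recognised by STAT dimers, and on both strands for GAAANNGAAA, a core recognised by interferon regulatory factors. The first motif reads the same on both strands. Capitals mark the matches in the windows of CISH (chr3:50611725-50612024, minus strand), SOCS1 (chr16:11256155-11256454, minus strand) and PIM1 (chr6:37169902-37170201, plus strand), shown 5′ to 3′ on the strand of the gene because PIM1 and SOCS1 held the largest differences below and CISH held the most matches.
CISH: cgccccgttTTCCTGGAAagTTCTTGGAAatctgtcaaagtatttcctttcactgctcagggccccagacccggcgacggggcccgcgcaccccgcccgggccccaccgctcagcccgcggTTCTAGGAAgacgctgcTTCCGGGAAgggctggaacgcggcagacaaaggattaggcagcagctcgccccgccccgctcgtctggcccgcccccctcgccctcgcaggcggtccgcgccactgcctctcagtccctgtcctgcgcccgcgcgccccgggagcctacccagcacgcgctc
SOCS1: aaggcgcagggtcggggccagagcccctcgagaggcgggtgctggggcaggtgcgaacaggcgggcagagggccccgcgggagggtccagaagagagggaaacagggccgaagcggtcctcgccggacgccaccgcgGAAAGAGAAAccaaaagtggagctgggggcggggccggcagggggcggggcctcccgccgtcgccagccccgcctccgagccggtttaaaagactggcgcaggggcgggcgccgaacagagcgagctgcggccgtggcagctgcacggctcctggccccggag
PIM1: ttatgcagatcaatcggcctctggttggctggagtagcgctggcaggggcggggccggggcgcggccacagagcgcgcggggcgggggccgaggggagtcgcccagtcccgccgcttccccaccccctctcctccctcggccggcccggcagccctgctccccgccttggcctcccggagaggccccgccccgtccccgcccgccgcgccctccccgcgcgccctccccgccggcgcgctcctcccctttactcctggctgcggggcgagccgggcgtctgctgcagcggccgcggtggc

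The CISH window held 4 matches to TTCNNNGAA, which began at positions -241, -230, -129 and -112 from the start site. Of 35116 RefSeq promoter windows, 7.66% held at least 1 such match and 0.456% held 2 or more. The SOCS1 window held 1 match to GAAANNGAAA, at position -113, a motif found in 3.57% of the windows. The windows of PIM1, PIM2 and PIM3 held neither motif. RefSeq gave 2 windows for SOCS3, at 78359618 to 78359917 and 78360876 to 78361175 of chromosome 17, and neither covers the GENCODE start of the gene at 78360077. Both lacked the motifs, and the sequence at that start was not searched. A match is a string of letters in this window, and binding was not measured.

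AU-rich elements, which mark many short-lived mRNAs, were counted as TATTTAT in the 3′ UTR of the canonical GENCODE 44 transcript. PIM1 held 4, CISH held 3, PIM3, SOCS2 and SOCS3 held 2 each, and PIM2 and SOCS1 held 0. Overlapping matches were counted separately, here and among all tested genes. The matches of PIM1, CISH and SOCS3 overlapped in 1 unbroken stretch per gene. Among 9860 tested genes with a 3′ UTR of at least 50 bases, 34.8% held at least 1, 14.7% held 2 or more and 6.46% held 3 or more. Windows of 30 bases around the densest elements of PIM1 (chr6:37174981-37175010, plus strand), CISH (chr3:50607101-50607130, minus strand) and SOCS3 (chr17:78356837-78356866, minus strand), all GRCh38, are given with each TATTTAT in capitals.
PIM1 element: tcaatgttatgTATTTATTTATTTATTTAT
CISH element: tgcacaattatacacTATTTATTTATTTAT
SOCS3 element: aagtcaaactttgcacaTATTTATATTTAT

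In the control, PIM3 was the most abundant member at 44.9 ± 3.19 FPKM (SD, n = 3 libraries), where FPKM is the number of sequenced fragments scaled by transcript length and library size. PIM1 followed at 32.0 ± 0.391 FPKM, PIM2 at 9.16 ± 0.723 FPKM, CISH at 6.15 ± 0.507 FPKM and SOCS2 at 1.95 ± 0.121 FPKM (all SD, n = 3). SOCS1 and SOCS3 were at 0.437 ± 0.0982 FPKM and 0.363 ± 0.127 FPKM (SD, n = 3), and this last pair was the only one of neighbours in the order whose libraries overlapped. After 30 min the order of the first 5 was the same, with SOCS3 and SOCS1 again overlapping. After 24 h PIM1 stood above PIM3, SOCS1 stood above SOCS2, and no neighbours overlapped. The plot of FPKM by library shows all 63 values.

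**Figure D1:**
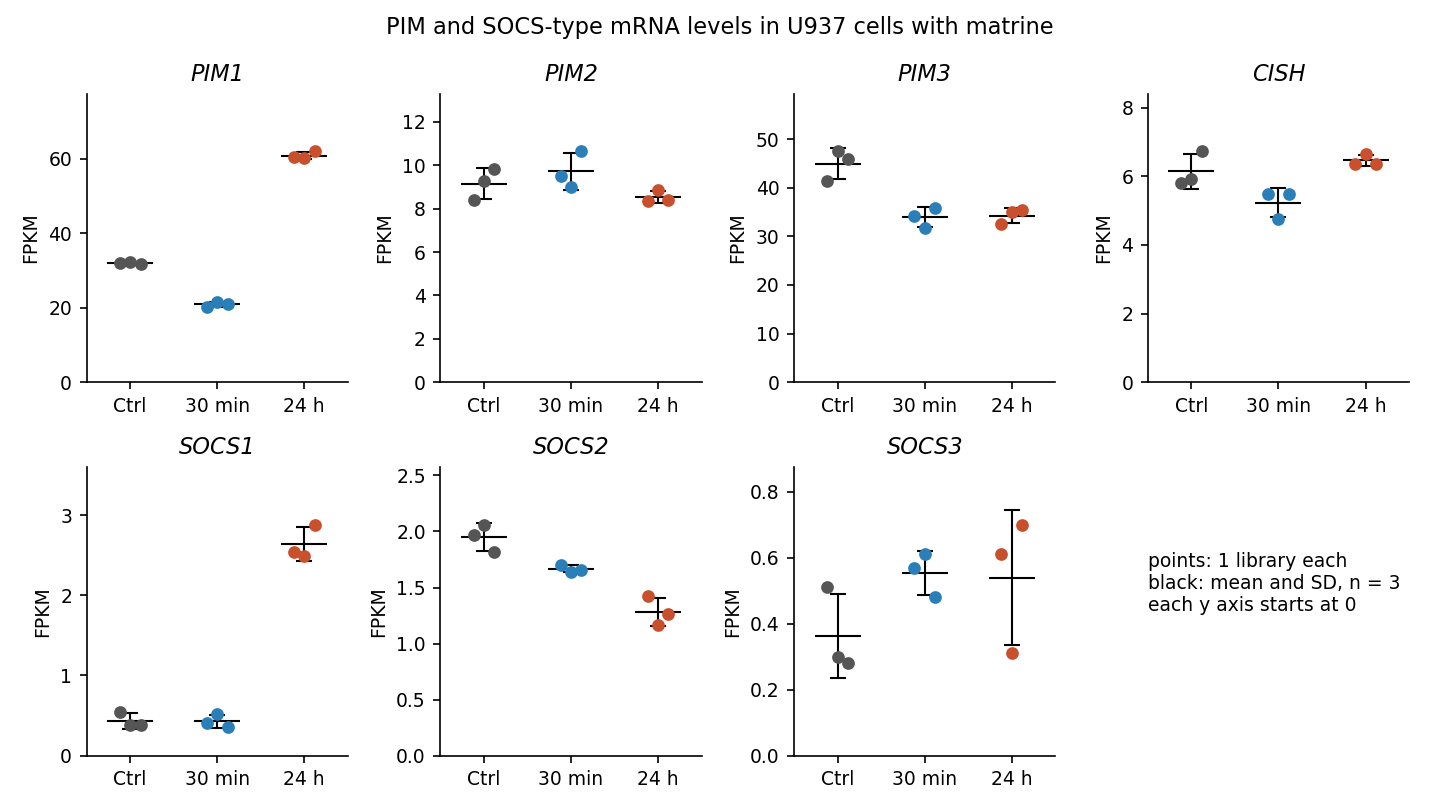
FPKM of each PIM and SOCS-type gene (y axes, each from 0) in the control, 30 min and 24 h groups (x axis), with 1 point per library and the mean and SD of 3 libraries in black. PIM1 lies at 20.2 to 21.6 FPKM after 30 min and at 60.2 to 62.1 FPKM after 24 h, on either side of its control libraries, and SOCS1 stands apart at 24 h alone.

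Each comparison below used edgeR's quasi-likelihood test over all genes with a mean FPKM above 1 in its 6 libraries. A call required an adjusted p under 0.05 together with a 1.5-fold or larger difference (0.585 on the log2 scale). SOCS3 stayed below the filter in all 3 comparisons. SOCS1 stayed below it for 30 min against control and passed it elsewhere only through its 24 h libraries, so that the filter itself selected for a difference. After 30 min, 1 of the 5 members tested was called, PIM1, in the lower direction, where 0.639% of 11587 genes were called, that is 0.0949% higher and 0.544% lower. After 24 h, 3 of the 6 members tested were called, PIM1 and SOCS1 higher and SOCS2 lower, where 26.4% of 12035 genes were called, 14.8% higher and 11.5% lower. Between 24 h and 30 min of matrine, PIM1 and SOCS1 were called higher among 6 tested, where 27.1% of 11981 genes were called, 15.7% higher and 11.3% lower. In such bulk samples, fewer cells of a type and less RNA per cell cannot be told apart. Groups that did not overlap were seen for 4 of 5, 4 of 6 and 5 of 6 members, against 13.9%, 69.6% and 68.4% of all genes tested, respectively. Nothing is read from these shares, since the members were chosen on the same libraries.

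**Figure D2:**
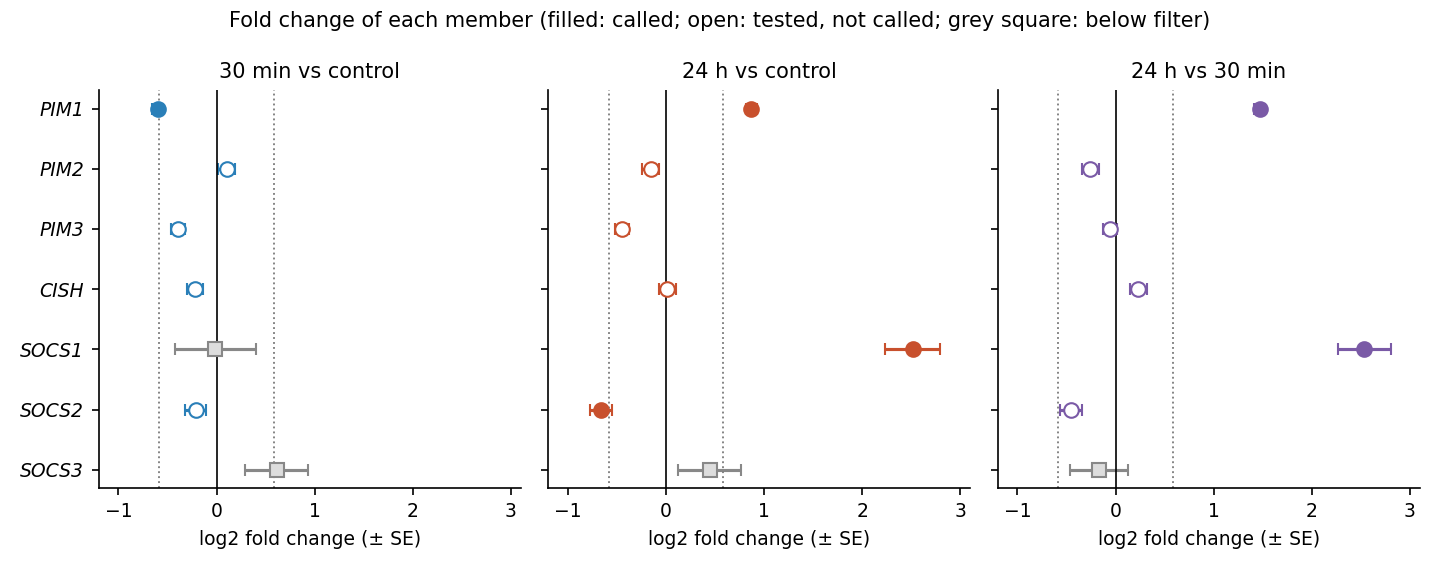
log2 fold change of each member (x axis, with its standard error as the bar) in the comparisons of 30 min with control, 24 h with control and 24 h with 30 min. Filled circles were called, open circles were tested and not called, and grey squares are genes below the filter, with values from a fit without it. Dotted lines mark the fold change threshold of 1.5, which PIM1 just passes at 30 min.

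PIM1 moved in opposite directions at the 2 times. It encodes the best-known kinase of the family, which phosphorylates BAD, p21 and p27 and prolongs cell survival. PIM1 (ENSG00000137193, chromosome 6 from 37170152 to 37175428, plus strand, 6 exons) had 31.98, 32.42 and 31.64 FPKM in the control libraries. After 30 min the libraries had 20.16, 21.55 and 21.06 FPKM, and after 24 h they had 60.44, 60.18 and 62.07 FPKM. The 3 groups did not overlap at any point. The log2 fold change was -0.60 (SE 0.0577) at 30 min and 0.87 (SE 0.056) at 24 h against control, and 1.47 (SE 0.0572), or 2.77-fold, between the 2 times. The 30 min value lay at the threshold. It was -0.58 and not called without control replicate 2, without 30 min replicate 1, or when the normalization factors came from genes with a mean FPKM above 1 over all 9 libraries.

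PIM3, a family member also known from metabolic and epithelial tissues, was lower at both times, and neither difference was called. PIM3 (ENSG00000198355, chromosome 22 from 49960768 to 49964072, plus strand, 6 exons) had 41.36, 47.5 and 45.93 FPKM in the control, 34.19, 31.7 and 35.91 FPKM after 30 min and 32.49, 34.96 and 35.34 FPKM after 24 h. All 6 matrine libraries were under the lowest control library, and the matrine groups overlapped each other. The log2 fold change was -0.39 (SE 0.0691) at 30 min and -0.45 (SE 0.0691) at 24 h. Both fell short of the fold change threshold and were called when it was dropped. The microRNA gene MIR6821 lies within PIM3 and was not counted in the table.

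PIM2, the member most expressed in lymphoid cells and plasma cells, differed little between groups. PIM2 (ENSG00000102096, chromosome X from 48913182 to 48919024, minus strand, 6 exons) had 8.38, 9.28 and 9.81 FPKM in the control, 9.51, 9.01 and 10.65 FPKM after 30 min and 8.36, 8.86 and 8.42 FPKM after 24 h. The control libraries overlapped both matrine groups. The log2 fold change was 0.10 (SE 0.0883) at 30 min and -0.16 (SE 0.0891) at 24 h. The 30 min value was 0.04 without 30 min replicate 3 or control replicate 1 and 0.18 without 30 min replicate 2. The 24 h libraries lay below the 30 min libraries, at a log2 fold change of -0.26 (SE 0.0881), which was not called.

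Summed over the 3 genes, the PIM transcript level was 86.1 ± 3.90 FPKM in the control, 64.6 ± 2.75 FPKM after 30 min and 103.7 ± 2.28 FPKM after 24 h (SD, n = 3). FPKM sums, here and below, do not carry the normalization factors used for the log2 fold changes. PIM1 made up 37.2% ± 1.65 of that sum in the control, 32.4% ± 1.89 after 30 min and 58.7% ± 0.905 after 24 h (SD, n = 3). PIM3 made up 52.1% ± 1.37, 52.5% ± 1.41 and 33.0% ± 0.832 of it in the same order (SD, n = 3). PIM transcripts were thus mostly PIM3 in the control and mostly PIM1 after 24 h.

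**Figure D3:**
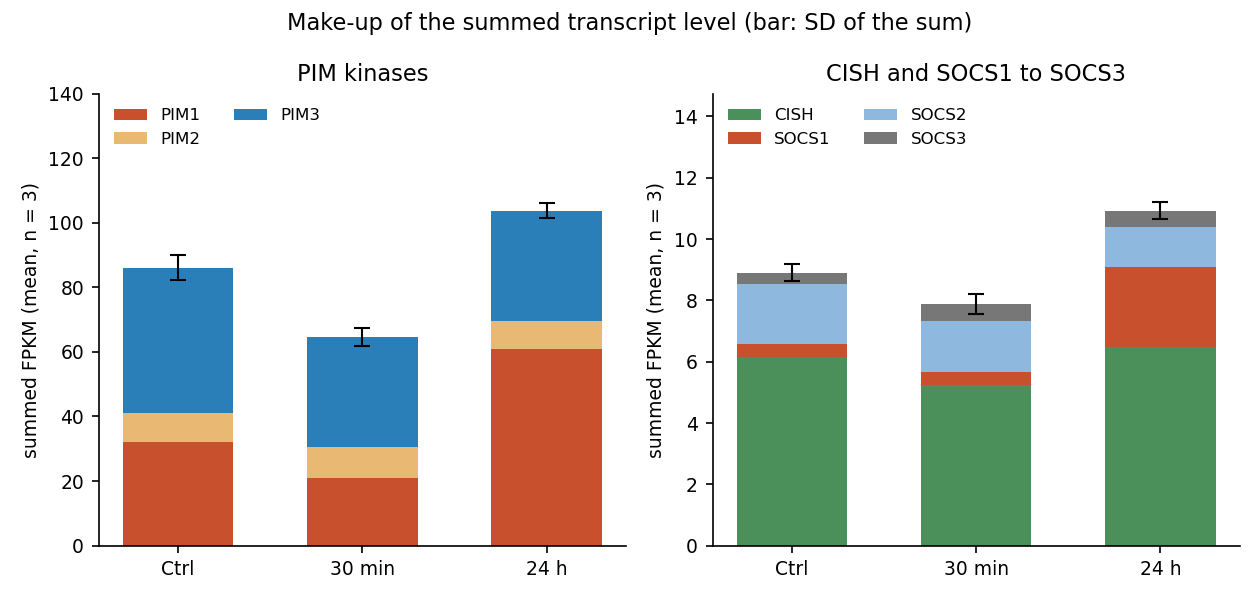
Summed FPKM (y axis from 0, stacked means of 3 libraries, with the SD of the sum) of the PIM genes on the left and of CISH, SOCS1, SOCS2 and SOCS3 on the right, in the control, 30 min and 24 h groups (x axis). The PIM1 share of the PIM sum is 37.2%, 32.4% and 58.7%, and the SOCS1 share of the other sum is 4.91%, 5.49% and 24.1%.

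SOCS1, which inhibits JAKs directly and restrains interferon signalling, had few counts in the control and at 30 min. SOCS1 (ENSG00000185338, chromosome 16 from 11254417 to 11256204, minus strand, 2 exons) had 0.55, 0.38 and 0.38 FPKM in the control, from 14, 9 and 8 counts. After 30 min it had 0.41, 0.52 and 0.36 FPKM, from 11, 13 and 9 counts. After 24 h it had 2.54, 2.49 and 2.88 FPKM, from 64, 62 and 77 counts. The control and 30 min libraries overlapped, and all 24 h libraries lay above them. The log2 fold change was 2.51 (SE 0.278), or 5.71-fold, against control and 2.54 (SE 0.274) against 30 min. Without the filter it was -0.01 (SE 0.412) at 30 min. With that standard error even a change of the size of the fold change threshold was not detectable at these counts. SOCS1 lies inside the span of RMI2 on the opposite strand and shares 0 exonic bases with it. RMI2 itself had 8.03 ± 1.04, 6.16 ± 0.485 and 11.02 ± 2.23 FPKM in the control, 30 min and 24 h groups (SD, n = 3), with a log2 fold change of 0.40 at 24 h against control that was not called and one of 0.77 against 30 min (adjusted p = 2.1e-05, edgeR). The part of RMI2 reads in the SOCS1 counts was not tested.

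SOCS2, a regulator of growth hormone receptor signalling, was highest in the control and lowest at 24 h. SOCS2 (ENSG00000120833, chromosome 12 from 93569814 to 93583487, plus strand) had 1.97, 2.06 and 1.82 FPKM in the control, 1.7, 1.64 and 1.66 FPKM after 30 min and 1.42, 1.17 and 1.26 FPKM after 24 h. No groups overlapped. The log2 fold change was -0.21 (SE 0.109) at 30 min, -0.66 (SE 0.112) at 24 h and -0.45 (SE 0.112) between the 2 times, and only the 24 h value against control was called. That call was lost with limma on log2(FPKM + 0.1), where the value was -0.57, and with limma on log2(FPKM + 1), where it was -0.37. SOCS2 shares 277 exonic bases with SOCS2-AS1 on the opposite strand, which had 6 to 26 counts per library against 161 to 277 for SOCS2.

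CISH, the founding gene of this inhibitor family and a classical STAT5 target, was the most abundant of the 4 feedback genes in every group. CISH (ENSG00000114737, chromosome 3 from 50606489 to 50611774, minus strand, 3 exons) had 5.79, 5.93 and 6.73 FPKM in the control, 5.47, 4.75 and 5.47 FPKM after 30 min and 6.37, 6.66 and 6.36 FPKM after 24 h. The 30 min libraries lay below all others, while the control and 24 h libraries overlapped. The log2 fold change was -0.22 (SE 0.085) at 30 min, 0.01 (SE 0.0839) at 24 h and 0.23 (SE 0.0842) between the 2 times, and none was called. Without 30 min replicate 2 the first value was -0.13 and the last 0.15. The 24 h sign turned without control replicate 1, without 24 h replicate 2 or without the filter. CISH shares 218 exonic bases with MAPKAPK3 on the opposite strand. Without a stated strand setting this overlap limits the CISH values, since MAPKAPK3 had 6290 to 8028 counts per library against 499 to 710 for CISH. MAPKAPK3 had log2 fold changes of 0.04 at 30 min and -0.24 at 24 h.

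SOCS3, the main inhibitor of gp130 and G-CSF receptor signalling, was too low to be compared. SOCS3 (ENSG00000184557, chromosome 17 from 78356778 to 78360077, minus strand, 2 exons) had 29, 16 and 13 counts in the control libraries. The 30 min libraries had 34, 34 and 27 counts, and the 24 h libraries had 34, 17 and 42. The groups overlapped in every comparison. Without the filter its log2 fold change was 0.61 (SE 0.317) at 30 min and 0.44 (SE 0.317) at 24 h. A change of the size of the fold change threshold was not detectable at this depth.

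CISH and SOCS1 to SOCS3 together reached 8.90 ± 0.279 FPKM in the control, 7.88 ± 0.325 FPKM after 30 min and 10.9 ± 0.285 FPKM after 24 h (SD, n = 3). CISH made up 69.0% ± 3.75, 66.3% ± 2.82 and 59.2% ± 3.06 of that sum (SD, n = 3). The SOCS1 share was 4.91% ± 1.15 in the control, 5.49% ± 1.26 after 30 min and 24.1% ± 1.39 after 24 h (SD, n = 3). The remaining SOCS genes are less closely tied to cytokine induction, and 3 of them, SOCS4, SOCS5 and SOCS6, were tested. None of the 3 was called in any comparison, and their log2 fold changes against control lay at -0.01, -0.03 and 0.30 at 30 min and at 0.08, -0.08 and 0.04 at 24 h in the order given.

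The other genes of the pathway were followed in 9 lists by role, which held 125 genes. These lists were chosen with earlier results of these data known, so their shares of called genes are descriptions. After 30 min, 0 of the 79 tested were called higher and 5 lower, where 0.0949% and 0.544% of all genes were. The median log2 fold change was -0.03 beside 0.00 over all genes. Without control replicate 2, 3 were called. After 24 h, 17 of the 82 tested were called higher and 5 lower, or 22 of 82, where 26.4% of all genes were called. The median was 0.09, and that of all genes was 0.00.

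Ligands were scarce. Of 27 cytokine ligand genes, 13 had 0 counts in all 9 libraries, IL6 and IL7 among them, and 3 were tested in at least 1 comparison. CLCF1 was the highest, at 8.67 ± 0.580, 6.77 ± 0.994 and 7.53 ± 0.236 FPKM in the control, 30 min and 24 h groups (SD, n = 3). It was not called in any comparison. CNTF, a ligand of the gp130 family, was lower at 24 h than at 30 min by a log2 fold change of -0.76 (SE 0.194, adjusted p = 0.0018, edgeR), with 1.48 ± 0.199, 1.81 ± 0.119 and 1.13 ± 0.127 FPKM in the 3 groups (SD, n = 3). OSM, a STAT5-induced gp130 cytokine named after its values were seen, had 1.44 ± 0.176 FPKM in the control, 0.433 ± 0.1 FPKM after 30 min and 1.42 ± 0.252 FPKM after 24 h (SD, n = 3). Its mean fell under the filter at 30 min, so that difference was not tested.

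Of 18 receptor chains tested at 24 h, 6 were called higher against control, 0 lower and 12 not called, where 14.8% of all genes were called higher and 11.5% lower. Against 30 min, 9 of 18 were called higher, where 15.7% of all genes were, and at 30 min 0 of 17 were called. IL11RA, the interleukin-11 receptor, had 0.58 ± 0.0755 FPKM in the control and 3.00 ± 0.144 FPKM at 24 h (SD, n = 3), a log2 fold change of 2.32 (SE 0.145). It was below the filter at 30 min and passed it only through its 24 h libraries, so it could be called in the higher direction alone and its p is not given. IL3RA, the interleukin-3 receptor alpha chain, had a log2 fold change of 1.89 (SE 0.214), from 0.907 ± 0.155 to 3.50 ± 0.378 FPKM (SD, n = 3). Its control mean was below the filter, so against control IL3RA too could be called in the higher direction alone, and its p is not given. CSF2RA and CSF3R, which bind GM-CSF and G-CSF, and the interleukin-10 receptor chains IL10RA and IL10RB were the others called at 24 h against control, with log2 fold changes of 0.79, 1.11, 1.04 and 0.90. CSF2RB, the chain shared by the interleukin-3 and GM-CSF receptors, had -0.25 and was not called.

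Among the 4 Janus kinases, 3 were called higher at 24 h, where 14.8% of all genes were, and 0 at 30 min, where 0.0949% were. JAK3, which pairs with the common gamma chain, went from 5.76 ± 0.438 to 12.6 ± 0.965 FPKM (SD, n = 3), a log2 fold change of 1.07 (SE 0.0754, adjusted p = 1.3e-10, edgeR). JAK2 had a log2 fold change of 0.77 (SE 0.136, adjusted p = 4.8e-05, edgeR), and TYK2 one of 0.76. JAK1 had a log2 fold change of 0.49 and was not called.

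Of 6 STAT genes tested, 2 were called higher at 24 h, beside 14.8% of all genes, and 0 at 30 min. STAT2, a subunit of the interferon-activated complex ISGF3, had 3.16 ± 0.199 FPKM in the control, 3.17 ± 0.151 FPKM after 30 min and 13.2 ± 0.281 FPKM after 24 h (SD, n = 3). Its log2 fold change at 24 h was 2.00 (SE 0.0759, adjusted p = 8.7e-15, edgeR). STAT3 had one of 0.60 (SE 0.065, adjusted p = 7.2e-08, edgeR), just past the threshold. STAT5A and STAT5B, the factors best known for inducing PIM1 and CISH, had log2 fold changes of 0.25 and 0.02 at 24 h and were not called.

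Among 12 other inhibitors of the pathway, 2 were called higher and 1 lower at 24 h, beside 14.8% and 11.5% of all genes, with 0 called at 30 min. PTPN11, which encodes the phosphatase SHP2, fell by 0.63 on the log2 scale (SE 0.0613, adjusted p = 1.5e-08, edgeR), although SHP2 is also known to promote signalling through RAS. PIAS3, which binds STAT3, and USP18, which blocks the interferon receptor, were higher by 0.59 each (SE 0.0794 and 0.132, adjusted p = 1.8e-06 and 0.00056, edgeR), both just past the threshold. None of the 6 genes on the list of SOCS-box ligase partners was called in any comparison, and their median log2 fold change was -0.28 at 24 h.

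Genes that STAT factors are known to induce gave 4 of the 5 calls at 30 min, all lower among 12 tested, where 0.544% of all genes were called lower. Nothing is read from that share, since this list, which holds MYC, was chosen with earlier results of these data known. The 5 calls became 3 without control replicate 2. MYC had 207.2 ± 5.10 FPKM in the control and 54.1 ± 4.58 FPKM after 30 min (SD, n = 3), a log2 fold change of -1.93 (SE 0.0613, adjusted p = 1.2e-14, edgeR). CEBPB, a myeloid transcription factor, had one of -0.75 (SE 0.093, adjusted p = 2.9e-05, edgeR), and JUNB and ID1 had values of -0.64 and -0.65. At 24 h, 3 of 14 were higher and 3 lower, beside 14.8% and 11.5% of all genes. CDKN1A, the gene of the cell cycle inhibitor p21, had a log2 fold change of 2.55 (SE 0.141, adjusted p = 3.2e-12, edgeR), and BCL6, a transcriptional repressor, one of 1.20 (SE 0.122), though BCL6 too was below the filter at 30 min and passed it only through its 24 h libraries. IRF1, an interferon-induced factor, was the third, at 0.91. MYC was lower at -2.30 (SE 0.0623, adjusted p = 2.4e-17, edgeR), CCND2, which encodes cyclin D2, at -1.70 (SE 0.0983, adjusted p = 6.8e-12, edgeR) and ID1 at -1.23. CEBPB was back at 45.7 ± 3.61 FPKM, beside 40.8 ± 6.29 FPKM in the control (SD, n = 3).

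**Figure D4:**
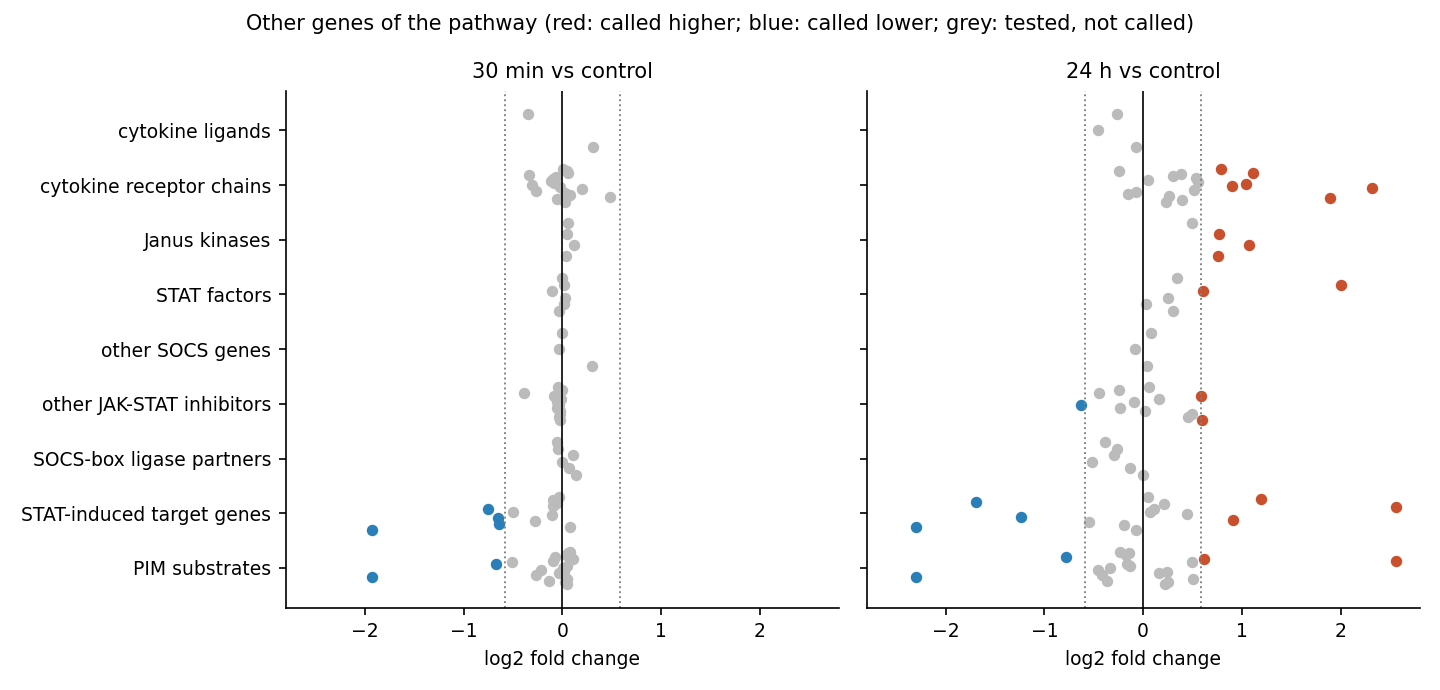
log2 fold change (x axis) of every tested gene of 9 lists of the JAK-STAT and PIM pathways (y axis), for 30 min against control on the left and 24 h against control on the right, with called genes in red (higher) or blue (lower) and dotted lines at the fold change threshold of 1.5. At 30 min 5 genes are called, all lower, and at 24 h 17 are called higher and 5 lower, with a gene on 2 lists drawn under both.

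Proteins known as PIM substrates were tested at the mRNA level through 19 genes, all of them measured. After 30 min 2 were lower, beside 0.544% of all genes, MYC and CXCR4, the chemokine receptor whose surface level PIM1 controls. CXCR4 had 126.2 ± 3.35 FPKM in the control, 78.3 ± 3.32 FPKM after 30 min and 117.2 ± 3.70 FPKM after 24 h (SD, n = 3), with a log2 fold change of -0.68 at 30 min (SE 0.0549, adjusted p = 4.4e-08, edgeR). After 24 h 2 were higher, CDKN1A and CDC25C, and 2 lower, MYC and CDC25A, beside 14.8% and 11.5% of all genes. The phosphatase genes CDC25A and CDC25C had log2 fold changes of -0.78 (SE 0.0592, adjusted p = 4.0e-10, edgeR) and 0.61 (SE 0.153, adjusted p = 0.0015, edgeR). CDKN1B, the gene of p27, was higher at 24 h than at 30 min by 1.00 (SE 0.0908, adjusted p = 5.6e-09, edgeR).

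The genes whose pattern over the 9 libraries was most like that of each member were found by the root mean square difference of centred log2 CPM among 11899 genes. For PIM1 these were RHOH, PLAU and C3orf80, at differences of 0.0908, 0.0968 and 0.125, and 10 genes lay within 0.15. PLAU, the urokinase gene, had 15.9, 10.99 and 31.0 FPKM on average in the control, 30 min and 24 h groups. For SOCS1 they were HTRA1, ERG28 and BMF, at 0.117, 0.143 and 0.148, and only these 3 lay within 0.15. SOCS1 had 8 to 14 counts per control or 30 min library, so counting noise enters its distances and the number within 0.15. HTRA1, like SOCS1, was low before 24 h, at 0.473, 0.443 and 2.38 FPKM in the control, 30 min and 24 h groups. Genes averaging 1 FPKM or less were left out, so genes this low before 24 h could enter only if higher at 24 h. The likeness of HTRA1 to SOCS1 is therefore partly fixed by the filter. BMF, which encodes a pro-apoptotic BCL2-family protein, had 1.37, 1.37 and 7.36 FPKM. The nearest genes were CEBPA, NOCT and NRROS for PIM3 and RBBP9, MFAP1 and PDRG1 for SOCS2. They were EHMT1, SCARB1 and RELT for PIM2 and CNNM3, ZFYVE27 and CRLF3 for CISH. Those of PIM2 and CISH carry little information, since 2169 and 1299 genes lay within 0.15 of these nearly flat patterns.

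Total counts lay between 17314931 and 21930018 per library, and replicate libraries varied beyond sampling noise. This spread was uneven. Between pairs of libraries of a group, chi-square per degree of freedom was 2.38 to 7.39 in the control, 5.28 to 11.9 at 30 min and 2.14 to 3.11 at 24 h. Of 10 monocytic markers, LYZ, SPI1 and CD33 were high in the control, at 292.3, 67.6 and 14.7 FPKM, while CD14, CD68 and CSF1R were below 1 FPKM in every group mean. Their summed level was 379 to 383 FPKM in the control, 373 to 400.3 FPKM after 30 min and 326 to 331 FPKM after 24 h. Of the 7 tested at 24 h, ITGAM, ITGAX and MPO were called higher and 0 lower, beside 14.8% and 11.5% of all genes. LYZ, SPI1 and CD33 had log2 fold changes of -0.32, -0.33 and -0.08 and FCGR1A had 0.20, none of them called. ITGAX and MPO passed the filter only through their 24 h libraries and could be called in no other direction. The part of this change in the members' values was not tested. Of 7 markers of other lineages, 5 had 0 counts in all libraries, and their summed level was 1.03 to 2.07 FPKM.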

How the data were processed

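RNA was sequenced from U937 cells in 9 libraries (3 control, 3 at 30 min and 3 at 24 h of 0.8 mg/ml matrine), and 18 libraries of HL-60 and K562 cells were not analysed here. The authors mapped reads with HISAT2 (2.0.1 in the submitters' processing notes, after cutadapt 1.9.1) and deposited HTSeq (0.6.1) counts per gene and FPKM values rounded to 2 decimals. The paper names hg38 and the notes name GRCh37. The annotation release and strand setting are not given in the sources used here, and coordinates printed are those of GENCODE 44 and RefSeq on GRCh38. Of 57905 gene identifiers, 51996 matched a symbol. SOCS7 was not matched.

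Counts were normalized by TMM and tested by edgeR (4.0.16, R 4.3.3) in 1 quasi-likelihood fit of 9 libraries, for genes whose FPKM averaged above 1 in the 6 libraries compared, with Benjamini-Hochberg adjustment over all tested genes. Calls needed adjusted p under 0.05 and a 1.5-fold difference or more. Each standard error is the absolute log2 fold change divided by the square root of its F statistic. FPKM served for the filter and the levels and were used as deposited, without TMM factors. These factors were 1.0221 to 1.0378 at 24 h and 0.9705 to 0.9961 in the other libraries, so FPKM ratios differ somewhat from the log2 fold changes. On simulated data with 199 changed genes among 12033, shaped on the 24 h comparison, 191 were recovered with 3 false calls. The real 24 h comparison called 3172 of 12035 genes, or 26.4%, and recovery with so large a share of genes differing was not tested. Recovery of differences close to the 1.5-fold threshold was not tested separately. A simulation of the 30 min comparison with 0 changed genes among 12035 gave 1 false call.

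The members and all gene lists and motifs were chosen with earlier results of these data known. Named genes were the 7 members, MYC, the 2 largest increases and decreases of each list among genes called with groups that did not overlap, and the 3 nearest patterns of each member with a mean FPKM above 1 (log2 CPM with a prior count of 2). Further list genes are named to complete a count. Since the labels do not say that libraries came from separate cultures, p-values measure the spread between these libraries, which may be technical. Alternatives were limma (3.58.1) on log2(FPKM + 0.1) and log2(FPKM + 1), DESeq2 (1.42.0), other scalings, filters and fold changes, a replicate block, and each library left out.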

Additional observations from a re-analysis of the deposited data

Results flagged for a closer look

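Differences between the 24 h and 30 min effects were taken as the log2 fold change of 24 h against 30 min, in which the shared controls cancel. Those named by the gene rule passed the threshold there, with groups that did not overlap. For the members these are descriptions, at 1.47 for PIM1 and 2.54 for SOCS1. Receptors and kinases with larger effects at 24 h were IL11RA (1.94), IL3RA (1.42), JAK3 (0.96) and JAK2 (0.72), and the STAT genes were STAT2 (1.98) and STAT3 (0.71). For the inhibitors the differences were 0.67 for PIAS3, 0.62 for USP18 and -0.60 for PTPN11. Among target and substrate genes they were 2.65 for CDKN1A, 1.65 for BCL6, 1.00 for CDKN1B, 0.86 for CEBPB, -0.70 for CDC25A and -1.60 for CCND2, and the ligand gene CNTF had -0.76. IL11RA and BCL6 passed the filter only through their 24 h libraries, and for the other genes that are not members adjusted p was at most 0.0018 (edgeR).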

How the results depend on the processing

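The number of members called at 30 min was 1, and it was 0 at a fold change of at least 2 and with TMM on genes above 1 FPKM over the 9 libraries (an alternative chosen after seeing the data), 2 with no fold change threshold, and 0 to 1 with 1 library left out. At 24 h 3 members were called, 1 at a mean FPKM above 5 or a fold change of at least 2, and 2 with limma on either FPKM scale. Between the times 2 were called, 1 at a mean FPKM above 5 and 5 with no fold change threshold. The filter at 5 FPKM leaves SOCS1 and SOCS2 untested. Pathway genes called numbered 5 at 30 min (1 at a fold change of at least 2, and 3 to 6 with 1 library left out, 3 without control replicate 2), 22 at 24 h (14 above 5 FPKM, 11 at a fold change of 2, 63 with no threshold) and 25 between the times (16, 10 and 66). All genes called numbered 74 at 30 min (125 without a filter, 47 above 5 FPKM, 24 at a fold change of 2, 187 with no threshold), 3172 at 24 h (1662 above 5 FPKM, 1130 and 7629) and 3242 between the times (1690, 1134 and 7831). The CISH value at 24 h turned from 0.0144 to -0.0418 without a filter and ranged from -0.0321 to 0.0747 with 1 library left out. The PIM3 value between the times turned from -0.06 to 0.024 above 5 FPKM, to 0.0173 with library totals alone, and to 0.0148 and 0.0144 with limma on log2(FPKM + 0.1) and log2(FPKM + 1). The causes of these turns were not tested. SOCS1 at 24 h had its lowest value, 1.34, with limma on log2(FPKM + 1), a pseudocount above its control level. Same-numbered libraries did not pair: over 9 pairs the deviations correlated at -0.26 to 0.13, and 2 of 9 libraries correlated best with their own number. The fit with a replicate block called 1, 3 and 2 members and 74, 3161 and 3245 genes. The depth limits SOCS1 before 24 h, and SOCS3 throughout.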
